A study of Mus musculus with 2 samples.

Results

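White FAPLs (wFAPLs, fibro-adipogenic progenitor-like cells) are 1 of the 7 clusters that the authors drew among precursor cells cultured from subcutaneous white fat of newborn C57/BL6J mice. The members described here are the cells of the white library that carry the label wFAPLs in the authors' table of barcodes and clusters, without those labelled Differentiating wFAPLs. That table was used for 1999 of its 4331 white precursor cells, and 256 of the 1999 (12.8%, with an exact 95% binomial interval of 11.4 to 14.4%) were wFAPLs. They were compared with the other 1743 labelled cells, which comprised 4 early preadipocyte clusters (W1 to W4, with 462, 260, 270 and 62 cells), 674 committed adipogenic precursors (wCAPs) and 15 Differentiating wFAPLs.

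Stromal vascular cells from pooled male and female pups (postnatal day 0 per the labels, day 1 in the published methods) were released by collagenase for 35 minutes from white and 50 minutes from interscapular brown fat, plated, and grown to confluency in 4 days without any treatment. There was 1 droplet library (10x 3' chemistry) for each depot, so a culture of pooled animals is the only sample of its kind and no difference below has a replicate check. The white library held 5261 captured cells and 144451047 unique molecular identifiers (UMIs), with a median of 26239 per cell, and the brown library held 7009 cells. The libraries shared 9 barcodes, or 0.171% of the white barcodes, and none of these was a wFAPL.

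The clusters were drawn by the authors from the same counts that are described here, so the contrast of wFAPLs with the other cells is a description and not a test. Levels are UMIs of a gene summed over the cells of a cluster and scaled to a total of 1000000 UMIs (CPM). Ratios are on the log2 scale with 95% intervals in parentheses that cover counting error only. The wFAPLs summed to 7170296 UMIs, with a median of 26730 per cell against 27247 in the other cells, a median of 5822 genes against 5880, and a median mitochondrial share of 2.98% against 3.02%. Depth and mitochondrial content were thus close in both sets of cells.

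Fibro-adipogenic progenitors are stromal cells that can become fibroblasts or adipocytes and that deposit matrix. In fat they lie near blood vessels, next to the mural cells that wrap the vessel wall, and adult fat also holds stromal cells that hold back the adipogenesis of their neighbours. Their known products include collagens of the basement membrane, the small leucine-rich proteoglycans that coat collagen fibrils, protease inhibitors and chemokines, while adipocyte differentiation depends on the nuclear receptor encoded by Pparg.

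Cxcl14, Serpinb1a, Meox2, Cryab, Col4a1 and Nr2f2 were taken as the 6 markers of wFAPLs. All 6 were higher in wFAPLs than in the other cells, but they fell into 2 patterns over the clusters. Cxcl14, Serpinb1a and Meox2 had their highest level of all 7 clusters in wFAPLs. Cryab, Col4a1 and Nr2f2 were highest in the 15 Differentiating wFAPLs, with wFAPLs in the next place.

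Cxcl14, a secreted chemokine (ENSMUSG00000021508, chromosome 13, 56288643 to 56296551 in GRCm38, minus strand), stood at 47.4 CPM in wFAPLs. It stood at 14.8 CPM in W1, 5.93 in W2, 9.07 in W3, 8.84 in W4 and 3.04 in wCAPs, and no UMI of it was found in Differentiating wFAPLs. The log2 ratio of wFAPLs to the other cells was 2.60 (2.39 to 2.82). A single cell held 25.8% of the Cxcl14 UMIs of the comparison cells, and without the top cell of each side the ratio was 2.97.

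Serpinb1a, an intracellular inhibitor of neutrophil-type serine proteases (chromosome 13, minus strand), stood at 76.3 CPM in wFAPLs and between 2.10 CPM (Differentiating wFAPLs) and 8.41 CPM (wCAPs) in the other clusters. Its ratio of 3.51 (3.31 to 3.71) was the highest among genes that reached 50 CPM in either set of cells. Meox2, a homeodomain transcription factor of the somitic and vascular mesoderm, stood at 95.5 CPM in wFAPLs and at 25.3 CPM in W2, the next level, with a ratio of 2.75 (2.59 to 2.90).

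Cryab, a small heat shock protein, stood at 333 CPM in wFAPLs, 1537 CPM in Differentiating wFAPLs and at most 102 CPM in the other 5 precursor clusters. It was also at 1516 CPM in the 20 cells of the same culture whose glial labels were used, a higher level than in wFAPLs. Col4a1, a chain of basement membrane collagen IV, stood at 946 CPM in wFAPLs, 792 CPM in W4 and 1833 CPM in Differentiating wFAPLs. Nr2f2, an orphan nuclear receptor known from venous and mesenchymal fate, stood at 244 CPM in wFAPLs and 533 CPM in Differentiating wFAPLs, and the other 5 clusters lay between 76.0 and 92.2 CPM. The ratios of wFAPLs to the other cells were 1.79, 1.60 and 1.42 for these 3 genes.

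**Figure D1:**
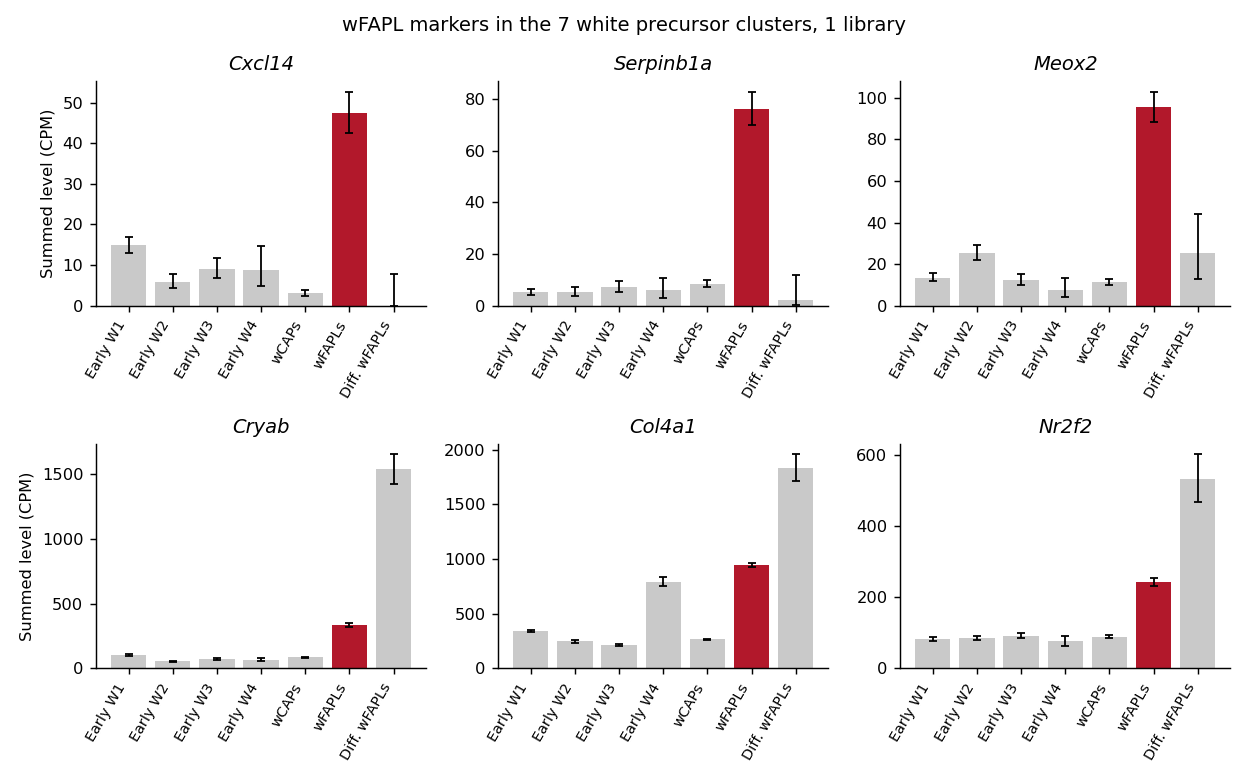
Summed level of each marker (vertical axis, CPM, starting at 0) in the 7 white precursor clusters of the 1 white library; error bars are 95% Poisson intervals on the summed UMIs. The wFAPL bar (red) is the tallest for Cxcl14, Serpinb1a and Meox2, at 47.4, 76.3 and 95.5 CPM, and second to Differentiating wFAPLs for Cryab, Col4a1 and Nr2f2.

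The 250 bases before the RefSeq start (GRCm38.p6) are shown for Cxcl14 and Meox2, markers with their highest level in wFAPLs. They are also shown for Spp1, which had the lowest ratio among genes at 50 CPM or more. None of these windows overlaps an annotated exon. Capitals mark matches, on either strand, to any of 8 short motifs that were searched. These were the TATA box TATAAA, the CCAAT box, the homeodomain core TAATTA, the nuclear receptor element AGGTCA, the TEAD site GGAATG, the AP-1 site TGANTCA, the MEF2 core TATTTATA and the CArG box of serum response factor.
Cxcl14 (chr13:56296552-56296801, minus strand): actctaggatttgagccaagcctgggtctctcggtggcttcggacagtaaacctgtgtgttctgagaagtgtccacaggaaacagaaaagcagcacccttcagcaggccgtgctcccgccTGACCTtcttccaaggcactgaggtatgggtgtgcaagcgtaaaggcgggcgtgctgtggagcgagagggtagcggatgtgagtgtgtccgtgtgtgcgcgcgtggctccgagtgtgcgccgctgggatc
Meox2 (chr12:37108290-37108539, plus strand): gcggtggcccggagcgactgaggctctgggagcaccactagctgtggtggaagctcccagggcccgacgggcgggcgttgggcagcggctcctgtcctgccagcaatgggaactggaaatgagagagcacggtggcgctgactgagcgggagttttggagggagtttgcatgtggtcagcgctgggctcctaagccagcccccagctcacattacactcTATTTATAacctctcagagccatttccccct
Spp1 (chr5:104434861-104435110, plus strand): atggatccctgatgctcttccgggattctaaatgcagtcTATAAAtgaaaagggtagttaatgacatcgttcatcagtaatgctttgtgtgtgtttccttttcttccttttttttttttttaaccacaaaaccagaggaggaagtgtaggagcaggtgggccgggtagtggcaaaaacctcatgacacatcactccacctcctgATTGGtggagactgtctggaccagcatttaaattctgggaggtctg

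In Cxcl14 the match was a nuclear receptor element, written on the opposite strand as TGACCT, that begins 130 bases before the start. In Meox2 the match was a MEF2 core that begins 31 bases before the start, and it overlaps an opposite-strand TATA box, written TTTATA. RefSeq promoters were found for 124 of the 177 genes (1.94% of those tested) that were at least 2-fold higher in wFAPLs. TATTTATA lay in 4.03% of the 124, 3.75% of 80 promoters of 2-fold lower genes, 0.795% of the 7296 promoters found for all tested genes and 1.63% of all 27025 promoters. The CArG box lay in 4.84%, 2.50%, 1.21% and 1.40% of these sets, and AGGTCA in 4.84%, 8.75%, 9.62% and 13.8%. In higher, lower and all tested genes, the TATA box lay in 10.5%, 8.75% and 5.92%. The AP-1 site lay in 6.45%, 8.75% and 3.56%, and the TEAD site in 15.3%, 16.25% and 10.2%. For the CCAAT box these shares were 36.3%, 35% and 36.6%, and for TAATTA 0.806%, 1.25% and 1.95%. The shares of 2-fold higher and lower genes rest on few promoters (5 and 3 for TATTTATA, 6 and 2 for the CArG box, and more for the CCAAT box, at 45 and 28). A match is a run of letters, not a shown site.

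The markers were read in single cells after each cell was thinned to 10000 UMIs, which no labelled precursor cell fell short of. Cxcl14 was found in 25% of wFAPLs and 3.33% of the other cells, Serpinb1a in 34.0% and 6.31%, and Meox2 in 52.3% and 10.9%. None of these 3 was found in any of the 20 glial cells (median 22607 UMIs), which should lack them. Without thinning the Cxcl14 shares were 40.6%, 8.49% and 15.0% in wFAPLs, other cells and glia.

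Cryab was found in 87.9% of wFAPLs against 43.3% of the other cells, Col4a1 in 90.2% against 73.9%, and Nr2f2 in 83.6% against 52.0%. These 3 were found in 95 to 100% of glia as well. A wFAPL held a median of 4 of the 6 markers and another precursor cell a median of 2. In all, 62 wFAPLs (24.2%, interval 19.1 to 29.9%) held 5 or 6 markers, against 0.459% of the other cells.

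**Figure D2:**
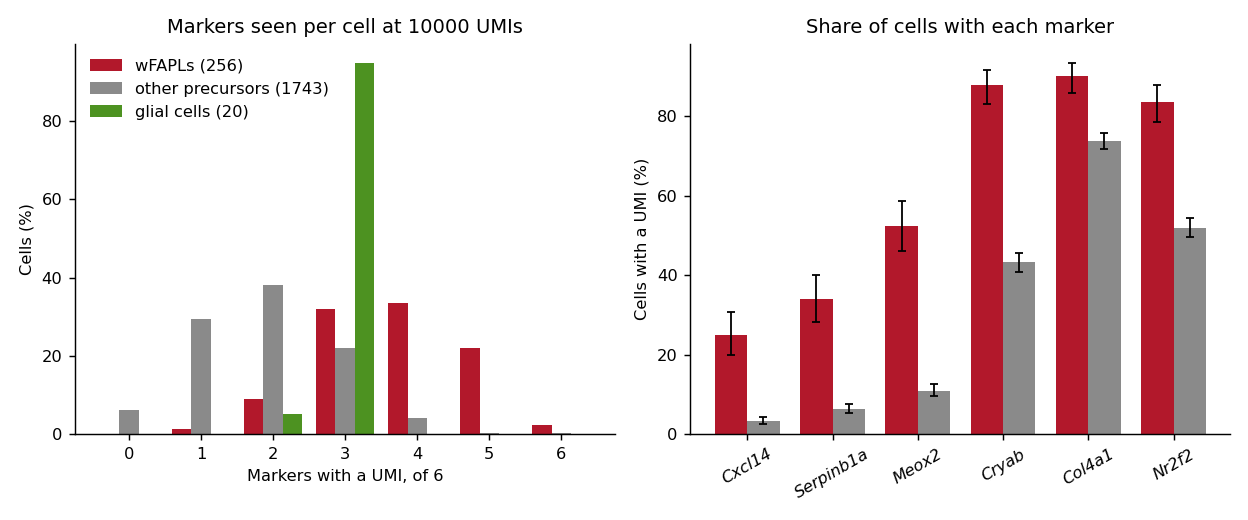
Left, share of cells (%) by the number of the 6 markers with at least 1 UMI, for 256 wFAPLs, 1743 other precursors and 20 glial cells thinned to 10000 UMIs; right, share of cells with each marker, with exact 95% binomial intervals. wFAPLs peak at 4 markers (33.6% of cells) and the other precursors at 2 (38.2%), and the right panel shows 25% against 3.33% for Cxcl14.

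Across the 256 wFAPLs the markers did not follow one another closely. Spearman correlations of thinned counts lay between -0.14 (Cxcl14 and Nr2f2) and 0.24 (Col4a1 and Nr2f2), and Cxcl14 was negative with each of the other 5. The cells share 1 library and the counts are sparse. Col4a1 and Col4a2, which encode partner chains of 1 trimer, had a correlation of 0.80 over the same cells.

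Over all genes, the comparison asked which transcripts set wFAPLs apart from the precursors they grew with. Of 9138 genes with at least 10 CPM in either set of cells, 177 were at least 2-fold higher in wFAPLs (1.94% of the genes) and 108 at least 2-fold lower (1.18%). The median ratio of all genes was -0.004 and the median size of a ratio, without sign, was 0.13, so most genes had nearly the same level in both sets. Of the 177 higher genes, 92 had their highest level in wFAPLs, 84 in Differentiating wFAPLs and 1 in W4. Of the 108 lower genes, 73 had their lowest level in Differentiating wFAPLs and 29 in wFAPLs, and their highest level was most often in W2 (40 genes) or wCAPs (27 genes). The 15 Differentiating wFAPLs summed to 476926 UMIs, where a count of 0 allows up to 6.29 CPM, so places of low genes in that cluster can lie within counting error.

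**Figure D3:**
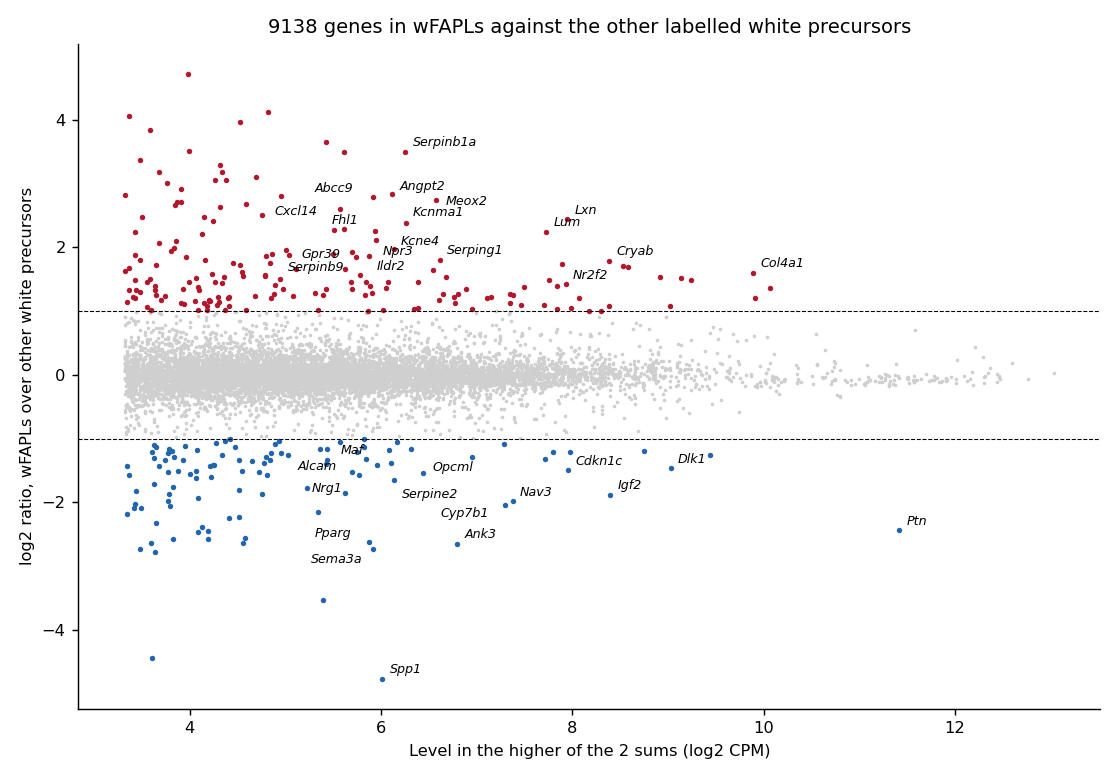
Each point is 1 of 9138 genes; the horizontal axis is the log2 CPM in the higher of the 2 sums and the vertical axis the log2 ratio of wFAPLs to the other labelled white precursors, with dashed lines at 2-fold. Red marks the 177 higher and blue the 108 lower genes; Serpinb1a (3.51) and Spp1 (-4.77) are the extremes among genes at 50 CPM or more.

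Among the 15 highest ratios at 50 CPM or more, Angpt2, the ligand that loosens contacts between endothelium and mural cells, stood at 69.5 CPM against 9.66 CPM, a ratio of 2.85 (2.66 to 3.03), and its level in the other 6 clusters was between 7.21 and 14.7 CPM. Abcc9, the regulatory subunit of the vascular ATP-sensitive potassium channel, had a ratio of 2.79 (2.59 to 2.98). Kcnj8, which encodes the pore of that channel, is not among the 15, as it stood at 31.0 CPM, and had a ratio of 2.80 (2.53 to 3.08). Kcnma1, the large-conductance calcium-activated potassium channel, stood at 76.4 CPM against 14.7 CPM, with at most 20.5 CPM in any other cluster. Kcne4, an accessory potassium channel subunit, had a ratio of 1.97, and Npr3, the clearance receptor of natriuretic peptides, one of 2.11. Npr3 was higher still in Differentiating wFAPLs, at 231 CPM against 61.5 CPM.

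The other genes among the 15 highest ratios at 50 CPM or more had varied roles. Lxn, an inhibitor of carboxypeptidases, stood at 246 CPM in wFAPLs and between 28.5 and 54.5 CPM in every other cluster, a ratio of 2.44. Serpinb9, an inhibitor of granzyme B, had a ratio of 1.85, and Serping1, which inhibits the first complement protease, one of 1.81. Fhl1, a LIM-domain protein of muscle, had a ratio of 2.26, Gpr39, a zinc-sensing receptor, one of 1.92, and Ildr2 one of 1.87.

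Among matrix genes the difference lay with a few members. Of 14 basement membrane genes tested, 3 were 2-fold higher and none lower, with a list median of 0.16. Col4a2 stood at 561 CPM against 195 CPM, a ratio of 1.53 (1.47 to 1.58), and Lama2, a laminin chain, at 109 CPM against 46.8 CPM, a ratio of 1.22. Like Col4a1, Col4a2 was highest in Differentiating wFAPLs (944 CPM), with wFAPLs next and W4 at 473 CPM. Lama2 was highest in wFAPLs, with 83.0 CPM in W2 as the next level.

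Of 34 interstitial matrix genes, 6 were 2-fold higher and none lower, with a median of 0.01. The proteoglycan lumican (Lum) stood at 212 CPM against 44.6 CPM, a ratio of 2.25 (2.15 to 2.34), and was at 0 UMIs in Differentiating wFAPLs. Decorin (Dcn), of the same family, stood at 961 CPM against 414 CPM, and at 52.4 CPM in Differentiating wFAPLs. Col14a1, a collagen on the surface of fibrils, had a ratio of 1.74, elastin (Eln) one of 1.08, and Mfap5 and Fmod ratios of 1.08 and 1.03. Members of the same proteoglycan family were not all higher, as biglycan (Bgn), the most abundant at 1624 CPM, stood at -0.07 and osteoglycin (Ogn) at -0.59. The fibrillar collagen genes Col1a1 and Col1a2 had ratios of 0.11 and 0.18, Col3a1, at 3066 CPM against 1882 CPM, had one of 0.70, and Col6a1, Col6a2 and Col6a3 ratios of -0.67, -0.64 and -0.49.

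Of 24 genes of matrix remodelling, 4 were higher and 1 lower, with a median of 0.15. Timp3, a metalloprotease inhibitor that binds to matrix, stood at 1069 CPM in wFAPLs, the highest of the 7 clusters, against 417 CPM in the other cells. Adamts5, an aggrecanase, had a ratio of 1.01. Serpine2, a thrombin inhibitor, was the lower member, at 22.5 CPM against 70.5 CPM (-1.65), and its level in wFAPLs was the lowest of the 7 clusters.

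Chemokine and cytokine genes went in both directions. Of 11 tested, 4 were higher and 1 lower, with a median of 0.45. Il33, an alarmin of stromal cells, stood at 27.1 CPM against 4.74 CPM, a ratio of 2.51, and was found in 11.3% of wFAPLs (thinned), none of the glia and 3.67% of the other cells. Ccl11 (eotaxin) had a ratio of 1.35 and Il6 one of 1.25. Within male cells Il6 stood at -0.67 (-2.17 to 0.54) and within female cells at 1.58. Its level of 12.6 CPM in wFAPLs was below that in W4 (14.7 CPM) and Differentiating wFAPLs (16.8 CPM). Ccl2, the monocyte chemokine, was lower, at -1.21, and Ccl7 stood at -0.66. Of 12 genes of complement and surface immunity, 2 were higher (Serping1, and Ly6c1 at 1.07, or 0.93 without the top cell of each side) and 2 lower (Saa3 at -2.58 and Hp at -1.29), with a median of 0.02. Hp was lower by more than 2-fold in male cells (-4.44, with an interval of -7.49 to -2.57) but not in female cells (-0.66, -1.16 to -0.19). One cell held 52.9% of the Saa3 UMIs of wFAPLs, and without the top cell of each side the ratio was -3.39.

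Growth factor genes, the list with the most tested members, had 8 higher and 2 lower of 41, with a median of -0.06. Besides Angpt2, Bmp4 stood at 17.7 CPM against 3.17 CPM, a ratio of 2.48 (2.14 to 2.83). Few cells carried it, since 37 of the 256 wFAPLs had any UMI of Bmp4 and the top 26 cells held 91.3% of them. Gdf10, like Bmp4 a ligand of the TGF-beta superfamily, stood at 93.6 CPM against 30.001 CPM. Fgf10, a mesenchymal growth factor with a known role in fat development, stood at 4.46 CPM against 21.3 CPM, a ratio of -2.25, with its highest level of 37.1 CPM in wCAPs. Pdgfra, the receptor used to sort fat progenitors, had a ratio of -0.54 and Pdgfrb one of 0.19. Of 11 Wnt pathway genes, 1 was higher (Dkk3, a secreted antagonist-family member, 1.66) and none lower, with a median of 0.08.

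Of 29 mesenchymal transcription factors, 5 were higher and none lower, with a median of 0.21. Beside Meox2 and Nr2f2 these were Lhx8 (1.81), Tbx18 (1.57) and Osr1 (1.18). Tbx18, a factor of mural and epicardial-derived cells, stood at 27.6 CPM in wFAPLs, 50.3 CPM in Differentiating wFAPLs and at most 13.0 CPM in the other 5 clusters. Twist2 and Prrx2, of the fibroblast program, had ratios of -0.87 and -0.86.

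On the lower side, the adipogenic list had no member 2-fold higher and 7 of 23 lower, with a median of -0.44. Of this list, the authors had reported Pparg, Fabp4, Igf1, Igf2, Lpl and Cyp7b1 as higher in wCAPs, and Ptn among the drivers of wCAPs. The count of lower members is therefore not independent of these data. Pparg, the master regulator of adipogenesis, stood at 9.48 CPM in wFAPLs, the lowest of the 7 clusters. It stood at 92.5 CPM in wCAPs, 77.6 CPM in Differentiating wFAPLs, and 39.3, 20.0, 49.5 and 44.8 CPM in W1 to W4. Its ratio to the other cells was -2.63 (-2.999 to -2.28), and it was found in 7.03% of wFAPLs, 31.9% of the other cells and none of the 20 glia after thinning. Lipoprotein lipase (Lpl) had a ratio of -1.20, Prdm16, a regulator of brown and beige fat, one of -1.22, and the fatty acid carrier Fabp4 one of -0.97.

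Other transcription factors of the list lay on both sides of 0. Cebpa, the partner of Pparg in late differentiation, had a ratio of 0.46, and the early factors Cebpd and Cebpb had ratios of 0.68 and -0.03. Ebf2 stood at 0.56, Ebf1 at -0.08 and Ebf3 at -0.54 (-0.70 to -0.39). Ptn, which encodes the heparin-binding growth factor pleiotrophin, stood at 505 CPM in wFAPLs and 2735 CPM in the other cells, with 4393 CPM in W2 and 120 CPM in Differentiating wFAPLs. Dlk1, the preadipocyte surface protein that restrains differentiation, stood at 188 CPM against 522 CPM, and its ratio of -1.47 was on the same side as that of Pparg. Igf2 stood at 91.2 CPM against 337 CPM (-1.88).

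Spp1, the matrix protein osteopontin, had the lowest ratio of all genes at 50 CPM or more, with 2.37 CPM in wFAPLs, 2.10 CPM in Differentiating wFAPLs and 39.5 to 447 CPM in the other 5 clusters. The guidance ligand Sema3a (-2.73), the adaptor Ank3 (-2.65), the oxysterol hydroxylase Cyp7b1 (-2.04), the neuron navigator Nav3 (-1.98), the growth factor Nrg1 (-1.58), the adhesion genes Opcml (-1.54) and Alcam (-1.52), the cell cycle inhibitor Cdkn1c (-1.49) and the transcription factor Maf (-1.41) completed the 15 lowest. Alcam, Cdkn1c, Pparg and Serpine2 were at their lowest level of the 7 clusters in wFAPLs. For Spp1 and Ank3 the levels in wFAPLs and Differentiating wFAPLs (17.7 and 14.7 CPM for Ank3) rest on few UMIs in the latter and were not told apart. Of 24 axon guidance genes, 2 were higher (Sema3f at 2.83 and Epha3 at 1.54) and 2 lower (Sema3a and Efna5), with a median of 0.03.

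Of 21 heat shock and stress genes, 4 were 2-fold higher and all 4 encode small heat shock proteins, Cryab, Hspb2 (3.02), Hspb7 (2.07) and Hspb6 (1.35). The other small heat shock genes on the list, Hspb1 and Hspb8, had ratios of 0.61 and 0.13 (-0.11 to 0.37). The list median was 0.02, and Hspa8, the most abundant member in wFAPLs, is a chaperone of another family. Of 15 p53 targets and cell cycle inhibitors, none was higher and 1 was lower (Cdkn1c), with a median of -0.26 and 2 of 15 above 0. Of 18 cholesterol synthesis genes none passed 2-fold, yet none had a ratio above 0, and the median was -0.35, with Lss at -0.84. Of 7 retinoid genes, Aldh1a3, an enzyme that makes retinoic acid, was higher (1.41) and Crabp1, which binds it, lower (-1.32), with a median of 0.58. Aldh1a3 was highest in W4, at 84.3 CPM against 29.7 CPM in wFAPLs.

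Markers of 3 stromal populations of adult fat were read in the same way. Of 8 tested genes on the list of Areg or CD142 progenitors, a stromal population that restrains adipogenesis, 4 were 2-fold higher. All 8 had a ratio above 0, with a median of 1.18. The authors tie Epha3, Mgp and Foxp2 of this list to other fibro-adipogenic groups, so the list is not particular to Areg or CD142 progenitors. The 4 were Meox2, which is also among the wFAPL markers, Fmo2 (2.47), Gdf10 (1.64) and Epha3 (1.54), while F3, which encodes CD142 itself, stood at 0.34. One cell held 33.3% of the Fmo2 UMIs of wFAPLs, and without the top cell of each side its ratio was 1.97. Abcg1 (0.697 CPM against 1.33 CPM) and Clec11a (9.07 CPM against 4.68 CPM), also on the list, were below the level tested.

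Of 12 interstitial progenitor markers, 4 were higher (Limch1 1.40, Igfbp6 1.26, Mfap5 1.08 and Ly6c1 1.07) and none lower, with a median of 0.70. The authors had singled out Igfbp6, Mfap5 and Ly6c1, and Fn1, Timp2, Cd9 and Creb5 of the same list, among genes that differed in these wFAPLs. The median is therefore not independent of these data. The defining marker Dpp4 had no UMI in wFAPLs and stood at 0.259 CPM in the other cells, which is below the 0.418 CPM that a count of 0 in wFAPLs allows. Pi16, another defining marker, stood at 1.67 CPM, below the level tested. Of 11 markers of committed preadipocytes, 3 were higher (Col4a1, Col4a2 and Icam1) and 3 lower (Pparg, Dlk1 and Lpl), with a median of 0.54.

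**Figure D4:**
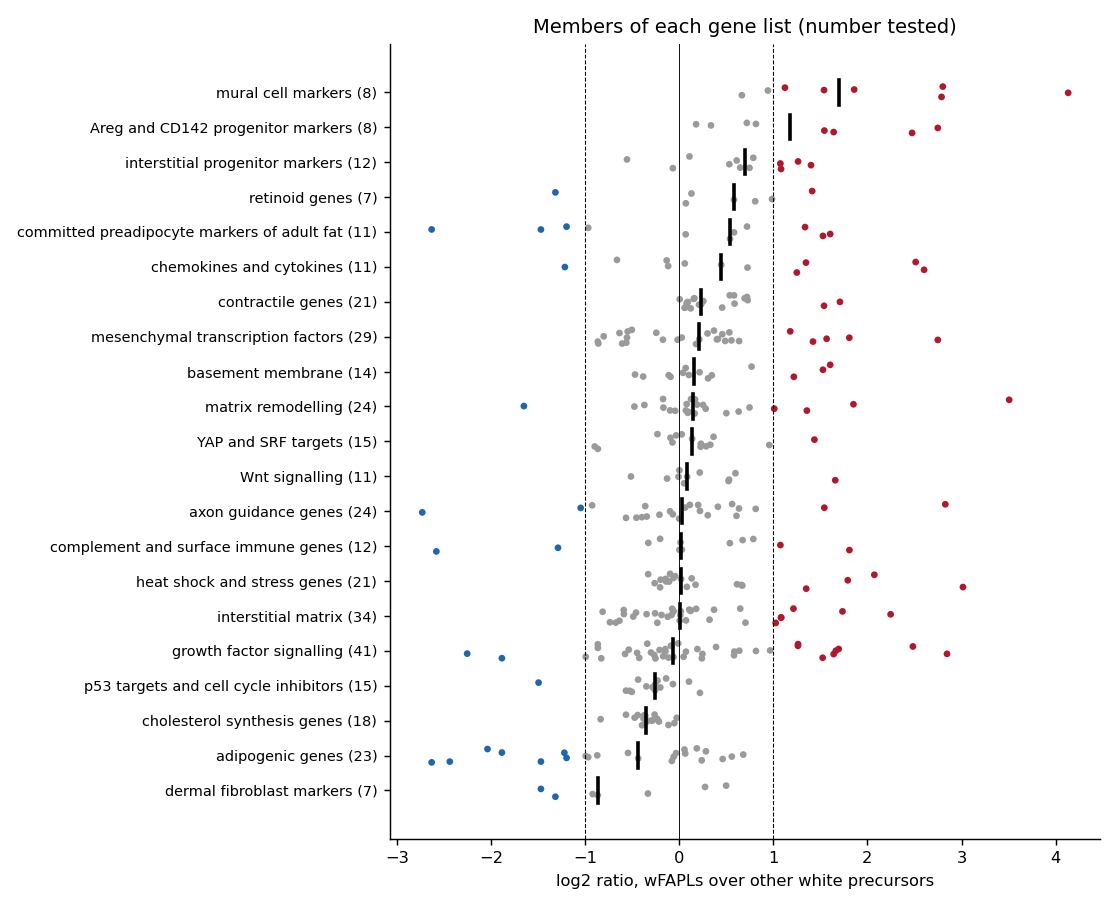
Each point is a tested member of a gene list (number tested in parentheses) placed by its log2 ratio of wFAPLs to the other labelled white precursors; black bars are list medians and dashed lines mark 2-fold. Lists with fewer than 6 tested members and the list of the 6 wFAPL markers are left out. Of those drawn, mural markers have the highest median (1.699) and dermal fibroblast markers the lowest (-0.87), against -0.004 for all genes. All 18 cholesterol synthesis genes lie below 0.

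Markers of mural cells, the pericytes and smooth muscle cells of vessels, were higher in wFAPLs. Of 8 tested, 6 were 2-fold higher and none lower, with a median of 1.699. Rgs5 stood at 28.3 CPM against 1.61 CPM, a ratio of 4.13 (3.75 to 4.52), and without the top cell of each side, which held 25.6% of its wFAPL UMIs, at 4.01. Few cells carried Rgs5, since 43 wFAPLs had any UMI of it and the top 26 cells held 91.6% of them. For Myh11 these values were 85 cells and 83.4%. Without the Differentiating wFAPLs among the comparison cells the ratio of Rgs5 was 5.07. The 11 listed genes summed to 337 CPM in wFAPLs, 103 CPM in the other cells and 3449 CPM in Differentiating wFAPLs. Myh11 was the most abundant in wFAPLs, at 102 CPM, and Higd1b had no UMI there. Cspg4 and Notch3, surface markers of pericytes, had ratios of 0.67 and 0.94.

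The mural genes were also counted in single cells. Of 6 of them (Rgs5, Kcnj8, Abcc9, Notch3, Cspg4 and Mcam), chosen after their values were seen, 38 wFAPLs (14.8%) had 3 or more at 10000 UMIs. The share was 0.810% in the other cells without Differentiating wFAPLs, 53.3% in Differentiating wFAPLs and 0% of 20 glia. At least 1 of the 6 was seen in 68.4% of wFAPLs, 34.1% of those other cells and 80% of glia, so 1 gene alone did not tell these cells apart. The part of mural cells in these ratios was not tested.

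Of 21 contractile genes shared with smooth muscle, 2 were 2-fold higher and none lower. All 21 had a ratio above 0, with a median of 0.23 and with Flna the nearest to 0 (0.005, -0.053 to 0.063). The 2 higher genes were Actg2 (1.71) and Myh11 (1.54). Myh11 stood at 2522 CPM in the 15 Differentiating wFAPLs among the comparison cells, and without them its ratio was 3.17. Acta2, the actin of myofibroblasts, stood at 4155 CPM in wFAPLs, 5035 CPM in W1 and 24520 CPM in Differentiating wFAPLs, with a ratio of 0.23. Lmod1 and Mylk had ratios of 0.73 and 0.72, and both were higher in Differentiating wFAPLs, at 375 and 1772 CPM. Lmod1 was also higher in W1, at 97.1 CPM against 74.3 CPM in wFAPLs. Of 15 targets of YAP and serum response factor, 1 was 2-fold higher (Ankrd1, 1.44) and none lower, with a median of 0.14. The top 26 wFAPLs held 96.6% of the Ankrd1 UMIs.

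Markers of glial, endothelial, mesothelial and myogenic cells had low levels in wFAPLs. Of 7 glial markers, only S100b reached the level tested (0.62), and Sox10 and Foxd3 had no UMI. Of 8 endothelial markers, only Egfl7 did (-0.18), and the list summed to 27.1 CPM against 22.3 CPM, with Cldn5 and Tie1 at 0. Cdh5, the cadherin of endothelial junctions, was below the level tested but had 56 UMIs in wFAPLs and 30 in all the other cells, or 7.81 CPM against 0.598 CPM, a ratio of 3.71 (3.04 to 4.40). Without the top cell of each side the ratio of Cdh5 was 3.93. Pecam1 and Kdr, defining markers of endothelium, had 3 UMIs each in wFAPLs, and the part of endothelial cells in the Cdh5 ratio was not tested. Of 8 mesothelial markers 7 were at 0, and Krt19 stood at 13.8 CPM. Of 6 myogenic markers 5 were at 0, Myod1, Myf5 and Pax7 among them.

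Of 7 tendon markers 3 were tested, with Fmod higher (1.03), Tnmd at 0.15 and Egr1 at -0.10. The 7 were not low in level, as they summed to 436 CPM in wFAPLs and 410 CPM in the other cells. Of 7 perineurial markers only Slc2a1 was tested (0.17). The 7 tested dermal fibroblast markers had a median of -0.87, with Dlk1 and Crabp1 lower and Dpt at -0.92. All 10 listed dermal genes summed to 440 CPM in wFAPLs and 842 CPM in the other cells.

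The myeloid list stood out through a single cell. Its 8 genes summed to 42.0 CPM in wFAPLs, 7.21 CPM in the other precursors and 14036 CPM in the 14 cells of the culture whose myeloid labels were used. One wFAPL of 45363 UMIs held 81.4% of these UMIs and all 8 genes, and without it the sum was 7.86 CPM. For Lyz2 alone the ratio was 3.29 with this cell and 0.26 without the top cell of each side. No doublet caller was applied to the cells.

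Set against single clusters, most of these genes were again 2-fold apart. Of the 177 higher genes, 147 were also at least 2-fold higher than in wCAPs (2.27% of all tested genes were) and 154 than in W1 (2.93%), and all 177 were above 0 against both. Of the 108 lower genes, 94 were at least 2-fold lower than in wCAPs (1.52%) and 73 than in W1 (1.19%). For Cxcl14 the ratio to wCAPs was 3.96 and that to W1 1.68, and for Serpinb1a 3.18 and 3.87. These clusters are part of the comparison cells, so these counts repeat part of the first comparison.

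Over whole profiles, the Spearman correlation across genes with wFAPLs was 0.962 for wCAPs, 0.959 for W1, 0.951 for W2, 0.9499 for W3, 0.923 for W4 and 0.821 for Differentiating wFAPLs. The white clusters fall in the same order by their summed UMIs, from 19390040 to 476926, so the profiles were also compared after every other cluster had been thinned to 476926 UMIs, a choice made after the data were seen. At that depth wCAPs and W1 stood at 0.927 and 0.926, W2 at 0.918, W3 at 0.916 and W4 at 0.898. Differentiating wFAPLs, which share the name, were still at 0.821, with 21.2% of genes at least 2-fold apart in either direction against 8.20 to 12.1% for the other white clusters. Brown FAPLs (bFAPLs) of the other library stood at 0.935 and 6.69% at that depth, closer than any white cluster. Thinning matches UMIs and not the number of cells, which is 15 for Differentiating wFAPLs, genes within a profile are not independent, and these values have no error.

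The brown library gave the same contrast in other cells, as 279 bFAPLs against the other labelled brown precursors. Of the 9138 genes, 174 were at least 2-fold higher (1.90%) and 98 lower (1.07%) in bFAPLs. Of the 177 genes higher in wFAPLs, 122 were 2-fold higher in bFAPLs as well (68.9% of the white and 70.1% of the brown set), and 176 had the same sign. Of the 108 lower genes, 68 were 2-fold lower in both (63.0% and 69.4%), and 106 had the same sign.

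Serpinb1a had a brown ratio of 3.52, almost as in white, and Meox2 one of 2.48. Col4a1 was farther from the other cells in brown, at 2.52 against 1.60 in white, and Kcnj8 likewise, at 4.02 against 2.80. The genes on opposite sides were Lhx8, Saa3 and Trpc6. Lhx8 stood at 1.81 in white and -0.69 in brown (-0.96 to -0.43), where the other precursors had 27.9 CPM and bFAPLs 17.2 CPM. Saa3 stood at -2.58 in white and 1.77 in brown, and Trpc6, a cation channel, at -1.56 and 0.46 with an interval in brown of -1.10 to 1.76. Whether these ratios differ between depots was not tested, as each has 1 library.

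**Figure D5:**
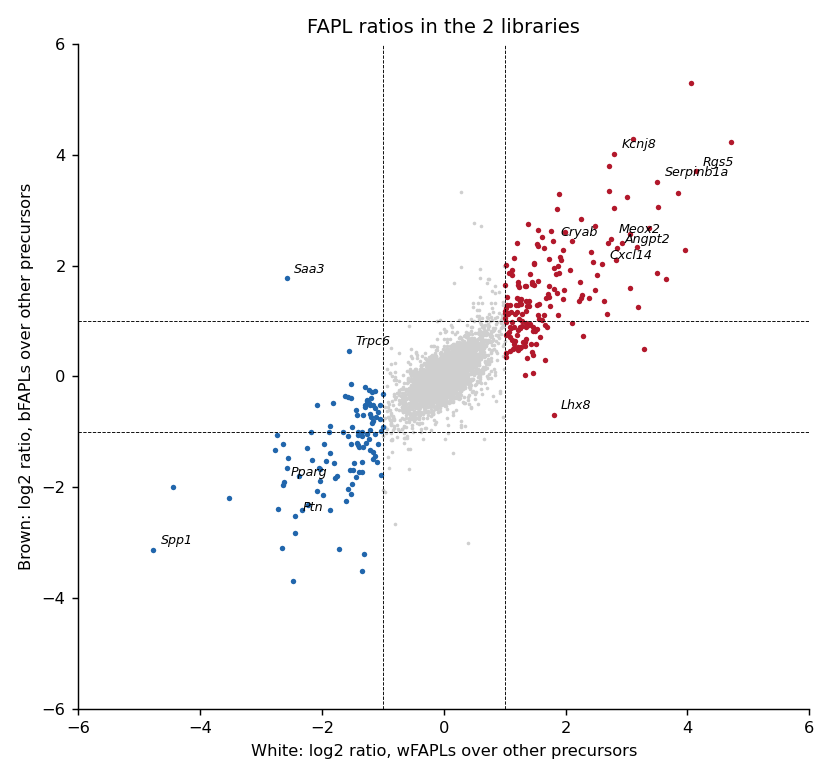
Each point is 1 of 9138 genes, with the log2 ratio of wFAPLs to the other white precursors on the horizontal axis and that of bFAPLs to the other brown precursors on the vertical axis; red and blue mark genes 2-fold higher or lower in white and dashed lines mark 2-fold. Most coloured points share their sign (176 of 177 and 106 of 108), with Lhx8, Saa3 and Trpc6 as the exceptions.

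Male and female cells of the pool are different animals within the white library, called by UMIs of Y-linked genes or Xist. Among wFAPLs 57 cells were male and 195 female, and 4 had neither or both. Males made up 22.6% (17.6 to 28.3%) of the sexed wFAPLs and 20.2% of the other sexed cells. Within male cells 198 genes were at least 2-fold higher (2.17%) and 185 lower (2.02%), and within female cells 176 (1.93%) and 111 (1.21%). Of the 177 higher genes, 136 were 2-fold higher within each sex and 174 had a ratio above 0 within each. Of the 108 lower genes, 82 were 2-fold lower in both, and all 108 had a ratio below 0 in both. Both sets of genes were chosen from the ratios of these same cells, most of them female, so these counts repeat part of the first comparison. The genes that did not reach 2-fold within male cells included Il6, Lyz2, Timp3 (0.91), Eln (0.82), Mfap5 (0.97), Ptprb (0.57) and Crabp1 (-0.63). Those that did not reach it within female cells included Adamts5 (0.89), Mcam (0.83), Fmod (0.96), Efna5 (-0.99) and Hp.

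Cxcl14 had a ratio of 1.47 in male and 3.05 in female cells. In the male comparison 1 cell held 101 of 136 UMIs, and without the top cell of each side the male ratio was 3.27 (2.63 to 3.92) and the female ratio 3.14. Il6 was on opposite sides, at -0.67 (-2.17 to 0.54) in male and 1.58 (1.19 to 1.95) in female cells, with 6 UMIs in male wFAPLs. Serpinb1a, at 3.39 and 3.54, and Meox2, at 2.49 and 2.84, were alike in size.

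Cell cycle phases of wFAPLs, called from scores of S and G2/M genes, were 66.0% G1 (59.9 to 71.8%), 14.8% S and 19.1% G2/M. The other precursors had 63.0%, 15.4% and 21.6%. After thinning the shares were 64.8%, 16.4% and 18.8% in wFAPLs and 61.2%, 16.9% and 21.9% in the other cells. The authors had regressed out the cell cycle before they drew the clusters, and cells of 1 culture are not replicates, so these shares are given as a description.

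Among wFAPLs themselves, the spread between cells was read from counts thinned to 10000 UMIs. Over 3577 genes at 50 CPM or more, the median ratio of variance to mean was 1.15. Acta2 had 27.9, with a median of 33 UMIs per cell and a maximum of 254, and Tagln and Actb, other genes of the contractile cytoskeleton, had 11.8 and 10.5. Tmsb4x, which encodes the actin-binding thymosin beta 4, had 17.2, and the nuclear RNA Malat1 had 25.4.

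The other genes of the 10 most variable were seen in few cells or at very uneven levels. Cemip, a hyaluronan-degrading protein, had no UMI in 72.7% of wFAPLs, and the top 10% of the cells held 78.8% of its UMIs. For Cdkn1c these values were 69.1% and 75.5%, and for the chemokine Cxcl12 32.8% and 54.3%. Ptn had a ratio of variance to mean of 15.5 and Mid1, a ubiquitin ligase, one of 12.5. Cxcl12, Mid1 and Cdkn1c had ratios of variance to mean of 5.32, 4.37 and 8.63 in the other precursors, against 13.2, 12.5 and 15.0 in wFAPLs. Without the top cell of each side, Cdkn1c had 9.27 in wFAPLs and 8.37 in the other cells, while Cxcl12 had 12.3 and 5.05 and Mid1 9.94 and 3.84. Acta2 and Ptn had higher ratios in the other precursors, at 30.7 and 23.1.

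Some of the higher genes lie side by side in the genome. Of the 177 higher genes, 15 (8.47%) start within 100 kb of another of them, while 1.72% of the other tested genes start that near to 1. Col4a1 and Col4a2 start 21 bases apart on chromosome 8 (11312826 and 11312805 in GRCm38) and run in opposite directions. Cryab and Hspb2 start 1029 bases apart on chromosome 9, also on opposite strands. Nr2f2 on chromosome 7 starts 1825 bases from the RNA B130024G19Rik (ratio 1.55) on the other strand, with Gm29683 (2.72) near both. Dcn and Lum, and Lxn and Rarres1 (3.06), are neighbours on the same strand. On the lower side, H19 (-1.27) and Igf2 (-1.88) start 88673 bases apart on chromosome 7, and 4 of the 108 lower genes (3.70%) had such a neighbour against 0.753% of the other tested genes.

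The genes whose level followed that of Cxcl14 most closely over the 7 clusters, by Pearson correlation of log2 (CPM + 1), were Arl2bp, Tomm6, Med17, Copz2 and Ptprb. Only Ptprb, a receptor phosphatase of endothelium, reached a ratio of 2-fold (1.01, with an interval of 0.72 to 1.30, and 0.98 without the top cell of each side), and the other 4 had ratios between 0.13 and 0.38. With 7 clusters, of which Differentiating wFAPLs had no Cxcl14 UMI, this order rests on few points.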

How the data were processed

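As deposited, the values are raw counts of UMIs per gene and cell that the authors made with Cell Ranger 7.0.1 against GRCm38, without normalization. Cluster labels come from the authors' source table, used for the first 1999 white and 1999 brown cells in barcode order. All of these pass the study's limits (over 3900 and under 7700 genes, 1.7 to 5% mitochondrial UMIs, 6000 to 60000 UMIs), which 4407 white cells pass. Doublets were limited only by these upper bounds, and no caller was run.

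Counts were summed over cells and scaled to CPM, and genes with at least 10 CPM in either sum were compared (9138). With 1 library per depot there is no p-value or standard error. The 95% intervals are Poisson for sums, Clopper-Pearson for shares and binomial, given both sums, for ratios. A sum of 0 UMIs allows up to 3 counts of the total. Cells were thinned to 10000 UMIs (6000 as an alternative) with a fixed seed. Phases were called with 43 S and 54 G2/M genes. Labels were also carried over to all filtered white cells by vote of 15 neighbours in 10 principal components with cycle scores regressed out. With each labelled cell left out in turn, 87.9% of wFAPLs got their label back.

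Named genes were the 6 markers, the 15 highest and 15 lowest ratios at 50 CPM or more, up to 4 per list with the largest ratios, the 10 with the largest variance over mean outside the cycle lists, and up to 5 most like Cxcl14. Some genes are not reported here. Further members of lists named in the text were chosen after their values were seen. The members and the 29 lists were chosen with earlier results of these data known. Promoters are from RefSeq (GRCm38.p6), which held 23 of the 34 genes looked up, and exons and gene positions from GENCODE vM21. Ratios and intervals were tested on simulated Poisson counts, which hold no added spread between cells, and thinning was checked on wFAPLs of the data. Python 3.11.15, numpy 2.4.6, scipy 1.17.1, pandas 2.3.3, scikit-learn 1.9.0 and matplotlib 3.10.9 were used.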

Additional observations from a re-analysis of the deposited data

How the results depend on the processing

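The number of 2-fold higher genes (177) and lower genes (108) depended on the level filter. At 50 CPM or more they were 65 and 30, and with no filter beyond 1 UMI in each sum 1698 and 822. With male cells alone and the filter applied within them, 189 genes were lower. In the brown library, 49 higher and 21 lower genes were 2-fold in both depots at 50 CPM or more. The share of wFAPLs was 14.4% among male cells. Without Differentiating wFAPLs, after thinning, in G1 cells, with the mean of per-cell CPM and with carried-over labels, the 2 counts stayed within 1.5 times. Of 110 named genes under 7 planned settings (770 values), 585 stayed within their counting interval, 182 moved and 3 changed sign: Il6 in male cells (-0.67) and Lyz2 in male cells (-0.86) and in G1 cells (-0.18). An alternative added after the data were seen, leaving out the top cell of each side, moved 8 of the 110 and turned none. Thinning the other clusters to 1 depth, also added later, lowered the likeness of each profile but that of Differentiating wFAPLs. No paired analysis was possible because each depot has 1 library and no result comes from a test. With 1 library, differences between cultures and depots cannot be told apart. Genes under 10 CPM in both sums were left out of the comparison, except for Cdh5 and the counts with no filter.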

Other observations

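Further gene groups were put together after the ratios had been seen, so their counts are descriptions of the same contrast. Among potassium channel subunits, Abcc9, Kcnj8, Kcnma1, Kcne4 and Kcnt2 (1.05, or 0.50 within male cells) were at least 2-fold higher in wFAPLs, and Kcnq5 was lower (-4.45). These 5 were higher in bFAPLs too, with ratios from 1.15 (Kcnt2) to 4.02 (Kcnj8). Of 11 genes of natriuretic peptide receptors and of enzymes that make, degrade or respond to cyclic GMP, 5 were 2-fold higher and none lower, with a median of 0.98. They are the clearance receptor Npr3 (2.11), both alpha subunits of soluble guanylate cyclase, Gucy1a1 (1.20) and Gucy1a2 (1.03), and the phosphodiesterases Pde1a (1.36) and Pde3a (1.12), with Gucy1a1, Gucy1a2 and Pde3a under 2-fold within male cells (0.95, 0.59 and 0.51) and a list median there of 0.59. By contrast Prkg1, the kinase that cyclic GMP activates, stood at -0.39.

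Of 19 tested imprinted genes none was 2-fold higher and 5 were lower, Igf2, H19, Cdkn1c, Dlk1 and Zdbf2 (-1.44), with a median of -0.38 over the 19 and -0.43 in the brown library. The 6 above 0 included Ndn (0.35), Mcts2 (0.30) and Mest (0.27). Of 11 tested genes of the insulin-like growth factor system, 3 were 2-fold higher and 2 lower, with a median of 0.39 (-0.07 within female cells). The binding proteins Igfbp4 (1.69), Igfbp5 (1.66) and Igfbp6 (1.26) were higher, while Igf2 and the binding-protein protease Pappa (-1.09) were lower. Igfbp2 (0.59), Igfbp3 (0.82) and Igfbp7 (0.39) stayed under 2-fold, and Igf1 stood at -0.99. In the brown library Igfbp4 and Igfbp5 were under 2-fold (0.89 and 0.29) and Igfbp6 was not (1.40). Igfbp4 stood at 384 CPM in wFAPLs against 119 CPM in the other cells, its highest level of the 7 clusters. The receptors Igf1r and Igf2r stood at -0.09 and -0.06.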
